A study of Mus musculus with 8 samples.

Results

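The 31 genes described here encode the constitutive subunits of the 26S proteasome: 7 subunits of the 20S alpha ring, 7 of the 20S beta ring, 6 ATPases of the 19S regulatory particle and 11 of its non-ATPase subunits. They were chosen by gene symbol, with the inducible immunoproteasome subunits left out, and all 31 were found among the 34745 genes of the deposited tables. The samples were tumours of B16F10, a mouse melanoma cell line grown in culture and given subcutaneously to C57BL/6J animals. These were fed a normal diet (ND, 4 tumours) or a high cholesterol diet (HCD, 4 tumours), and no other allele, agent, age or time is given in the labels. Total RNA of whole tumour tissue was sequenced, so the B16F10 graft and the cells of the host contribute to every value. Nothing in the labels ties each tumour to its own mouse, so the spread behind each p-value is that of these libraries. Pairs of libraries of one diet differed by more than counting noise, with a chi-square per degree of freedom from 14.5 to 37.6. Whether this spread is that between mice was not tested.

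The proteasome degrades proteins that carry ubiquitin chains. Its 20S core is a barrel in which outer alpha rings gate the entry and inner beta rings hold the proteolytic sites, and the 19S particle recognises, deubiquitinates, unfolds and feeds in the substrate. In cells that see interferon gamma, the 3 catalytic beta subunits are replaced by inducible counterparts that favour peptides for MHC class I, and the transcription factor NRF1, encoded by Nfe2l1, is known for raising subunit genes together when proteasome activity falls short.

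NRF1 acts through antioxidant-response-type elements, and many housekeeping promoters hold a CCAAT box, so the RefSeq promoter windows (GRCm38.p6, 250 bases before to 50 after the start site) were searched on both strands for TGACNNNGC and for CCAAT. A window was found for 25 of the 31 members. TGACNNNGC was present for 4 of the 25, or 16%, beside 14.0% of 27025 genes with a window, and CCAAT was present for 10 of the 25, or 40.0%, beside 41.1% of those genes. The 4 members with TGACNNNGC were Psmb5, Psmb6, Psmc6 and Psmd12, and none of them held CCAAT. The sequences around the match are shown, 5′ to 3′ on the strand of the gene and up to the part before the start site, because the levels of these 4 genes are set beside that of Nfe2l1 further on. The match is in capitals, and in Psmc6 and Psmd12 it lies on the opposite strand.
Psmb5 (chr14:54618009-54618067, minus strand): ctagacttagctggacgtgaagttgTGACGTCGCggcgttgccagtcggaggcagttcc
Psmb6 (chr11:70525323-70525356, plus strand): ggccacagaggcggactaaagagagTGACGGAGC
Psmc6 (chr14:45329574-45329630, plus strand): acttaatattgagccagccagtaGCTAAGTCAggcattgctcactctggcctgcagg
Psmd12 (chr11:107479278-107479314, plus strand): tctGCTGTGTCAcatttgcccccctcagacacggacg
The matches lay 47, 9, 227 and 247 bases before the start site of Psmb5, Psmb6, Psmc6 and Psmd12. A match of letters is a description of the window and not a bound site.

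Total counts ran from 14599222 to 17722093 per library. ND 2, ND 3 and ND 4 had counts for 18088 to 18224 genes, against 16285 to 16745 in ND 1 and the HCD libraries, so the normal diet group is not uniform. The share of mitochondrially encoded genes was 13.7 to 14.7% in ND and 11.4 to 12.9% in HCD. The 6 melanocyte lineage markers summed to between 25490 and 29640 CPM (counts scaled to a library of standard size, TMM-normalized) in every library, and the keratinocyte marker Krt5 was at 0 in all 8. Skeletal muscle markers summed to 1.32 to 41.6 CPM in ND and 0.485 to 2.71 in HCD, and endothelial markers to 49.97 to 64.0 in ND and 69.95 to 77.1 in HCD. The 6 macrophage markers summed to 204.7 to 253.5 CPM in ND and 239.8 to 284.0 in HCD, and 3 of them were higher in HCD at an unadjusted p under 0.05, with none past the adjusted threshold. The fibroblast markers summed to 44.97 to 59.5 CPM in ND 3, ND 4 and HCD 4 and to 135.9 to 268.9 in the other 5 libraries. The part of these differences in the values below was not tested.

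No difference between the diets in any of the 31 subunit transcripts passed the test. By edgeR's quasi-likelihood test with Benjamini-Hochberg adjustment over 13186 genes, 0 of 31 had an adjusted p under 0.05, beside 24 of all genes tested, or 0.182%. At an unadjusted p under 0.05 the count was again 0 of 31, beside 14.7% of all genes, and DESeq2's test and limma-voom, which called 3.27% and 0.144% of all genes, also called none of the 31. In no member did the 4 values of one diet lie all above or all below those of the other, beside 9.67% of all genes. The fitted log2 fold changes (HCD minus ND) ran from -0.14 for Psmd3 to 0.12 for Psmd12, with 19 values above 0 and 12 below, and their median was 0.0099 beside 0.0049 over all genes tested.

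In the fit with diet as the only term, the precision of these values was high enough to bound the differences. The 95% interval of the fold change lay within 1.5-fold either way for all 31 members, beside 64.5% of all genes tested. It lay within 1.3-fold for 30 of 31, beside 39.2% of all genes, and the exception was Psmc6, whose interval ran from 0.877-fold to 1.34-fold. Members also had more counts than the median gene, with a median of 152 CPM, a scale not divided by gene length, against 24.04 over all genes tested, and genes with more counts have narrower intervals. The lowest library count of a member ran from 396 to 8271. The bounds depend on the fit. With a term that sets ND 2 to ND 4 apart, ND 1 alone carried the diet contrast. The members' log2 fold changes then ran from -0.366 for Psmb6 to 0.478 for Psmc6. Those of Psmc6 and Psma7, 0.478 and 0.265, lay above the upper ends of their intervals, 0.422 and 0.245 in log2.

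**Figure D1:**
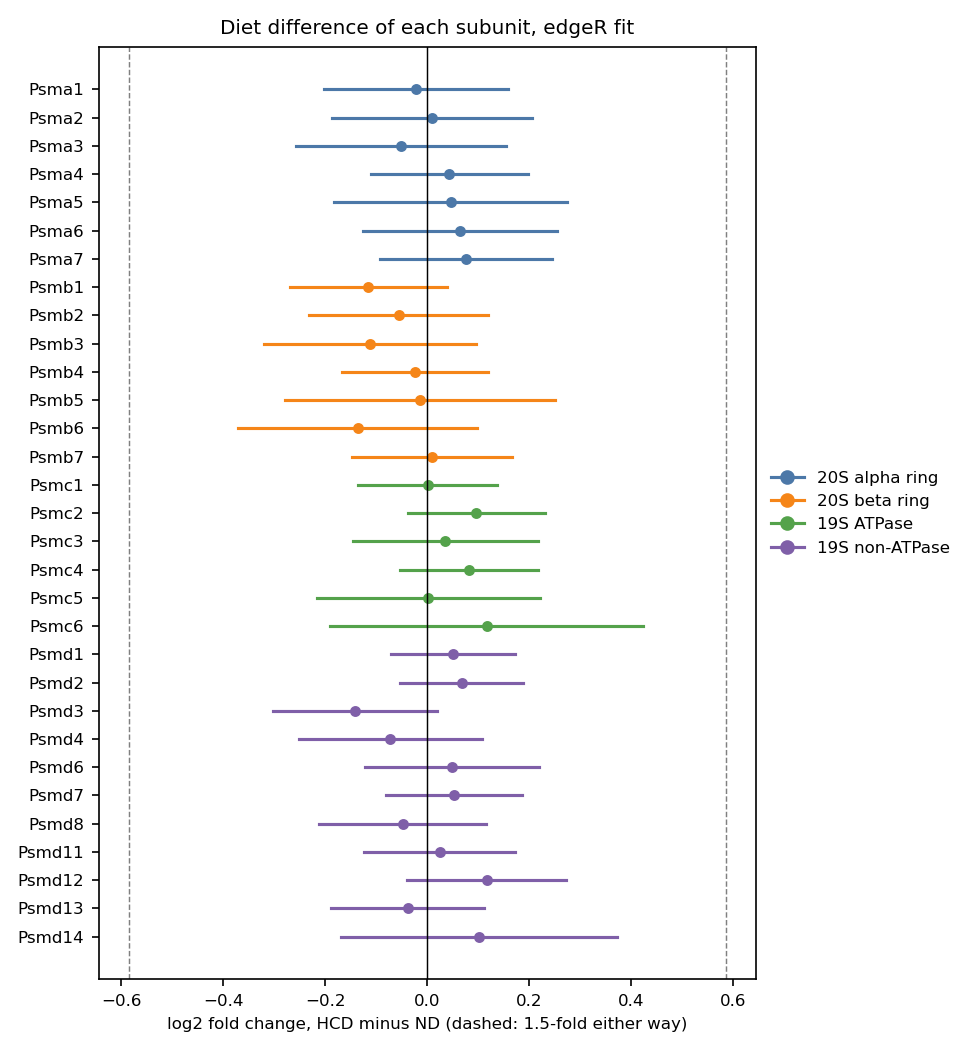
Fitted log2 fold change between diets (x axis, HCD minus ND) for each of the 31 subunits (y axis); points are estimates, bars are 95% intervals, and colours mark the part of the particle. Every bar crosses 0, and all bars lie inside the dashed lines at 1.5-fold; the widest is that of Psmc6.

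Levels of the members were compared with each other as deposited FPKM, which divides by gene length, and are means over the 8 libraries. The 31 members spanned 56.0-fold, from 4.50 ± 0.306 FPKM (SD, n = 8) for Psma3 to 252.3 ± 17.2 for Psmd8. For each single member, the highest library exceeded the lowest by 1.13-fold to 1.66-fold, with a median of 1.23-fold, beside 1.52-fold over the tested genes with FPKM above 0 in every library. The median level was 33.1 FPKM over the alpha ring, 62.8 over the beta ring, 58.7 over the ATPases and 27.4 over the non-ATPase subunits. The products assemble in equal numbers within a ring, whereas the transcripts of a ring did not stand at equal levels. The highest exceeded the lowest 22.6-fold in the alpha ring, 4.72-fold in the beta ring and 6.94-fold among the ATPases. Among the non-ATPase subunits the highest exceeded the lowest 39.7-fold. The gene length behind FPKM counts every annotated exon of a gene, 6255 bases for Psma3 and 944 for Psma2, so part of the order follows the annotation. Psma3, the low end of the spans over all members and over the alpha ring, also has near-identical copies, described further on. How reads shared with them were counted is not known, so its level is uncertain. On the CPM scale, which is not divided by length, the means of these same genes over the 8 libraries lay closer. They were 96.2 for Psma2 and 28.2 for Psma3, and 558.8 for Psmd8 and 65.8 for Psmd11. The order also changed with the scale. By CPM the highest alpha member was Psma7, at 190.6, and the lowest non-ATPase member was Psmd6, at 57.9.

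**Figure D2:**
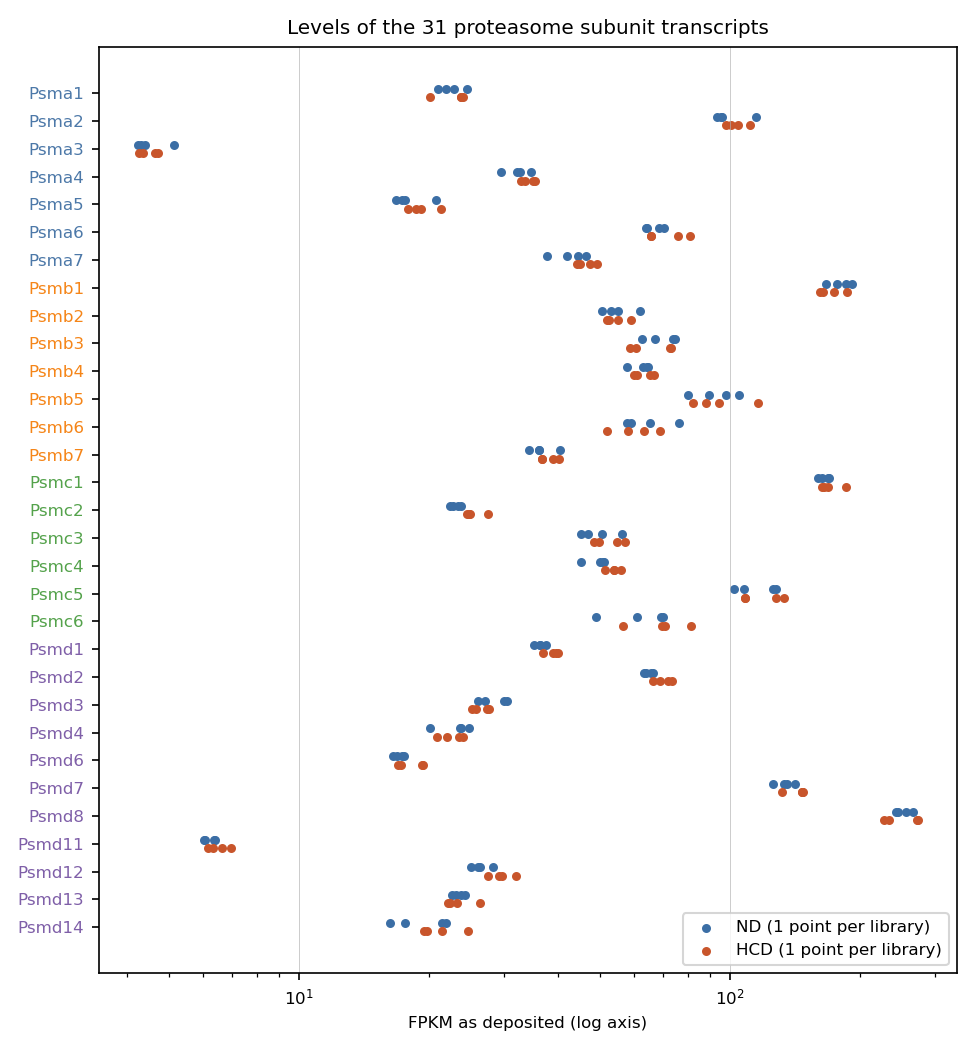
Deposited FPKM (x axis, log scale) of each subunit (y axis, label colour by part of the particle) in the 4 ND and 4 HCD libraries, 1 point per library. The libraries of one subunit sit close together and the diets intermix, while subunits range from 4.50 (Psma3) to 252.3 (Psmd8) in their means.

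The alpha ring forms the gate of the core and holds no proteolytic site. Of its 7 members, 5 had fitted values above 0 and 2 below, with a median log2 fold change of 0.04, and none passed the test. Psma2 (chr13:14613240-14674236, plus strand), the alpha subunit with the highest FPKM, had 88.7, 91.7, 111.4 and 91.7 CPM in ND 1 to 4 and 91.8, 96.9, 91.6 and 105.8 in HCD 1 to 4. ND 3 and HCD 4 were the high libraries, and the groups overlapped (log2 fold change 0.0099, SE 0.088, edgeR adjusted p = 0.978). Psma3 (chr12:70974621-70996347, plus strand), the lowest alpha subunit, had 26.7, 27.5, 32.8 and 27.8 CPM in ND and 28.1, 26.2, 26.9 and 29.7 in HCD. Its highest library was likewise ND 3, and the log2 difference was -0.05 (SE 0.093, edgeR adjusted p = 0.852). The other alpha members, Psma1, Psma4, Psma5, Psma6 and Psma7, had log2 fold changes from -0.02 to 0.08 with overlapping groups. Psma1 was lowest in HCD 3 at 54.4 CPM, below the range of the other 7 libraries.

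The beta ring carries the 3 proteolytic sites, chymotrypsin-like in Psmb5, caspase-like in Psmb6 and trypsin-like in Psmb7. Of the 7 beta members, 6 had fitted values below 0 and 1 above, with a median log2 fold change of -0.06, and none passed the test. Psmb5 (chr14:54614119-54618022, minus strand) had 92.5, 71.2, 79.9 and 86.6 CPM in ND and 74.2, 80.5, 100.3 and 71.9 in HCD, which span nearly the same range (log2 fold change -0.01, SE 0.12, edgeR adjusted p = 0.974). Psmb6 (chr11:70525367-70527858, plus strand) had 238.7, 187.3, 183.3 and 205.2 CPM in ND and 174.6, 192.7, 211.4 and 162.4 in HCD. ND 1 and HCD 3 were the highest of their groups for both genes, and HCD 4 was the lowest library for Psmb6 (log2 fold change -0.14, SE 0.11, edgeR adjusted p = 0.612). Psmb7 (chr2:38588036-38644087, minus strand), the beta subunit with the lowest FPKM at 37.4, had 129.8, 124.0, 146.8 and 130.4 CPM in ND and 126.5, 139.9, 137.0 and 131.1 in HCD. The means of the groups differed by less than their spread, at 132.7 ± 9.82 (SD, n = 4) and 133.6 ± 6.02.

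The 4 beta subunits without a proteolytic site, Psmb1, Psmb2, Psmb3 and Psmb4, all had fitted values below 0. Psmb1 (chr17:15475021-15499751, minus strand), with 176.4 FPKM the highest beta subunit, had 200.9, 177.0, 197.1 and 186.2 CPM in ND and 165.1, 190.0, 178.8 and 168.7 in HCD. The lower end of the ND range, ND 2, lay below HCD 2 and HCD 3, and the log2 difference of -0.12 had an SE of 0.069 (edgeR adjusted p = 0.487). Psmb2, Psmb3 and Psmb4 lay between -0.11 and -0.02.

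The ATPases form the ring that unfolds the substrate and opens the gate. All 6 had fitted values at or above 0, with a median log2 fold change of 0.06, and none passed the test. Psmc2 (chr5:21785283-21803787, plus strand), the ATPase with the lowest FPKM at 24.3, had 126.2, 119.9, 122.6 and 124.3 CPM in ND and 125.8, 141.8, 129.7 and 129.8 in HCD. Only HCD 1 lay inside the ND range, and the log2 difference was 0.10 (SE 0.061, edgeR adjusted p = 0.513). Psmc4 (chr7:28041707-28050101, minus strand) had 190.8, 172.2, 195.3 and 188.6 CPM in ND and 194.4, 205.1, 198.3 and 192.6 in HCD. Its low library was ND 2, and the log2 difference was 0.08 (SE 0.061, edgeR adjusted p = 0.592). Psmc1 (chr12:100110154-100123405, plus strand), the ATPase with the highest FPKM at 168.3, had 258.8, 248.0, 264.2 and 251.8 CPM in ND and 240.9, 276.8, 253.4 and 252.2 in HCD. Its group means, 255.7 ± 7.23 and 255.8 ± 15.1 CPM (SD, n = 4), were nearly equal. Psmc6 had the widest spread of the 31 across libraries, from 77.0 CPM in ND 1 to 127.5 in HCD 4, and a log2 fold change of 0.12 (SE 0.14, edgeR adjusted p = 0.762).

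The non-ATPase subunits comprise the scaffolds and ubiquitin receptor of the base, Psmd1, Psmd2 and Psmd4, and 8 subunits of the lid, among them Psmd14, the deubiquitinase that removes the chain, and its partner Psmd7. Of the 11, 7 had fitted values above 0 and 4 below, and none passed the test. Psmd3 (chr11:98682554-98695979, plus strand), a structural subunit of the lid, had the smallest p-value of all members. It had 202.7, 212.5, 237.3 and 237.5 CPM in ND and 188.3, 209.5, 208.8 and 200.4 in HCD. ND 3 and ND 4 stood above the other 6 libraries, and ND 1 and ND 2 lay within or just above the HCD range (log2 fold change -0.14, SE 0.072, unadjusted p = 0.0786 and adjusted p = 0.404 by edgeR). Psmd12 (chr11:107479484-107504362, plus strand), another structural lid subunit, had 79.0, 89.6, 83.5 and 83.1 CPM in ND and 89.5, 97.6, 84.9 and 91.5 in HCD. ND 2 lay above 2 of the HCD libraries, and the log2 difference was 0.12 (SE 0.070, edgeR adjusted p = 0.491).

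Psmd8 (chr7:29174188-29180701, minus strand), a lid subunit and the highest of the 31 per length, had 595.7, 553.6, 549.4 and 574.0 CPM in ND and 501.8, 589.8, 598.1 and 508.1 in HCD. HCD 1 and HCD 4 were low and HCD 2 and HCD 3 were high, so the SD was 51.6 CPM in HCD against 21.3 in ND. Psmd11 (chr11:80428615-80473248, plus strand), a lid subunit that braces the regulatory particle against the core, was the lowest of this class at 6.36 FPKM. It had 62.8, 64.0, 67.3 and 66.9 CPM in ND and 69.6, 62.3, 67.9 and 65.5 in HCD, and the ND values lie inside the HCD range. The base scaffolds Psmd2 and Psmd1 were the steadiest members, with log2 fold changes of 0.07 and 0.05 and standard errors of 0.054 and 0.055. Psmd14 was among the most variable, from 63.6 CPM in ND 1 to 96.0 in HCD 4, and Psmd4, Psmd6, Psmd7 and Psmd13 had log2 fold changes between -0.07 and 0.05.

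Within a diet, the SD of log2 CPM had a median of 0.10 over the members, beside 0.18 over all genes tested, and ran from 0.05 to 0.24. The share of all counts held by the members together was 0.500 ± 0.0126% in ND and 0.516 ± 0.0186% in HCD (SD, n = 4), from 0.482% in ND 2 to 0.539% in HCD 2. All counts here include mitochondrially encoded genes, which held a mean of 13.98% in ND and 12.18% in HCD. The part of that difference in the members' share was not tested. The number of members above their own mean was 13, 8, 21 and 14 of 31 in ND 1 to 4 and 12, 22, 15 and 15 in HCD 1 to 4. ND 2 had the fewest members above their mean, and ND 3 and HCD 2, one of each diet, had the most.

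The members did not vary as a single block. A singular value decomposition of their deviations, an analysis added after the data had been seen, put 55.8% of the variance on 1 axis. By the sign of their weight, 17 members fell to one end and 14 to the other. Some weights were near 0, such as 0.0022 for Psmb2 and -0.0203 for Psmd11. Psmb6, Psmb5, Psmc5 and Psmb3 led the first end and were high in ND 1 and HCD 3 and low in HCD 4. Psmc6, Psmd14, Psma5 and Psma2 led the other end, with Psmc6 at 77.0 CPM in ND 1 and 87.5 in HCD 3 against 127.5 in HCD 4. The ends differed in base composition: over all members of each sign, the median GC content of the transcripts was 51.9% at the first end and 45.8% at the second. Across the 31 members, which share the same 8 libraries, Pearson's r of the weight on the axis with GC content was 0.61 and with log2 length -0.09. Over all genes with a GC value, the slope of a library's log2 deviation per 10 points of GC was 0.094 in ND 1 and 0.059 in HCD 3, and -0.10 in HCD 4. The part of base composition in this pattern was not tested.

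**Figure D3:**
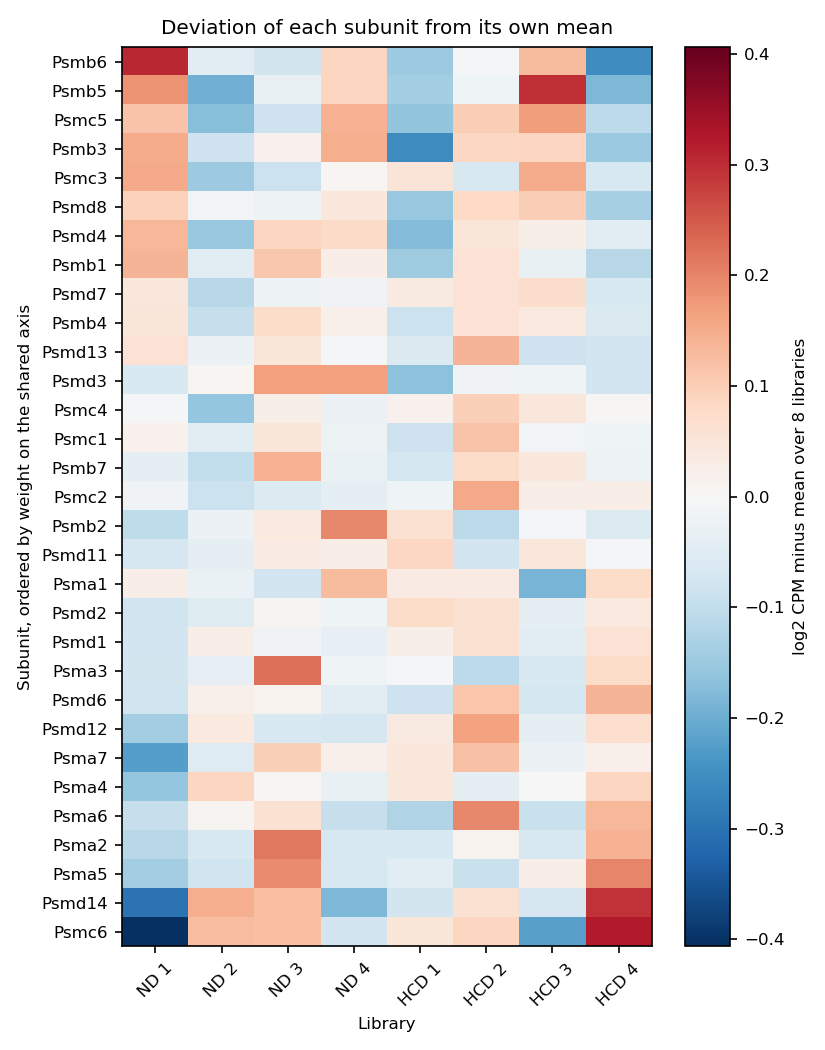
Deviation of each subunit's log2 CPM from its own mean over the 8 libraries (colour scale), with libraries on the x axis and subunits on the y axis, ordered by weight on the shared axis. The top and bottom rows take opposite colours in ND 1 and HCD 4, and Psmc6 spans the widest range, from 77.0 CPM in ND 1 to 127.5 in HCD 4.

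The 3 inducible subunits, Psmb8, Psmb9 and Psmb10, take the places of Psmb5, Psmb6 and Psmb7. Psmb8 had 251.3, 20.9, 196.6 and 202.6 CPM in ND and 187.4, 200.7, 207.0 and 142.4 in HCD. Psmb9 had 61.0, 7.17, 61.7 and 44.8 CPM in ND and 37.4, 41.8, 47.4 and 29.8 in HCD, and Psmb10 had 150.6, 40.6, 122.9 and 106.7 in ND and 115.9, 103.5, 129.4 and 86.0 in HCD. ND 2 was the low library for all 3, and the lowest of the other 7 exceeded it 6.81-fold, 4.16-fold and 2.12-fold. The constitutive partners did not follow by that size: Psmb5 and Psmb7 were also lowest in ND 2, but the lowest of the other 7 libraries exceeded ND 2 by 1.01-fold and 1.02-fold. ND 2 was the lowest library for 8 of the 31 members and the highest for 1, and it did not stand apart in this: ND 1 was the lowest for 9 and HCD 1 for 8. Of the 42 tested pathway genes, ND 2 was lowest for 10 and highest for 6.

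The FPKM ratio of Psmb8 to Psmb5 was 0.0665 in ND 2 and 0.449 to 0.615 in the other 7 libraries. That of Psmb9 to Psmb6 was 0.0189 against 0.0906 to 0.166, and that of Psmb10 to Psmb7 was 0.917 against 1.84 to 3.25. The difference between diets in the log2 ratio was 0.62, 0.35 and 0.17, with p = 0.8571, 0.9714 and 0.8286 by two-sided exact permutation tests and 0.971 for each after Benjamini-Hochberg adjustment over the 3 ratios, where 4 against 4 libraries allow a smallest p of 0.0286. Without ND 2 the differences were -0.15, -0.35 and -0.20, the opposite sign, and their adjusted exact p-values were 0.400, 0.343 and 0.400. Psme1 and Psme2, the subunits of the interferon-induced activator of the core (Psme1 named after its values were seen), were also lowest in ND 2, at 61.7 against 109.5 to 144.7 CPM and 13.9 against 23.5 to 34.2 CPM.

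In ND 2 the 4 T cell markers summed to 0.663 CPM, against 1.87 to 4.36 in the other 7 libraries. These sums rest on few reads: the counts in ND 2 were 1 for Cd3e, 1 for Cd3g, 2 for Cd4 and 7 for Cd8a. Cd3e and Cd4 did not pass the expression filter. The 6 macrophage markers summed to 214.1, against 204.7 to 284.0. Most of that sum in ND 2 was Cd68, at 169.1 CPM, its highest value in any library. Adgre1, Csf1r and Lyz2 were each lowest in ND 2, at 4.94, 11.3 and 18.6 CPM, whereas Cd14 and Mrc1 were not. The part of these cells in the low values of ND 2 was not tested. In bulk tumour RNA, fewer cells of a type and less RNA per cell cannot be told apart.

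**Figure D4:**
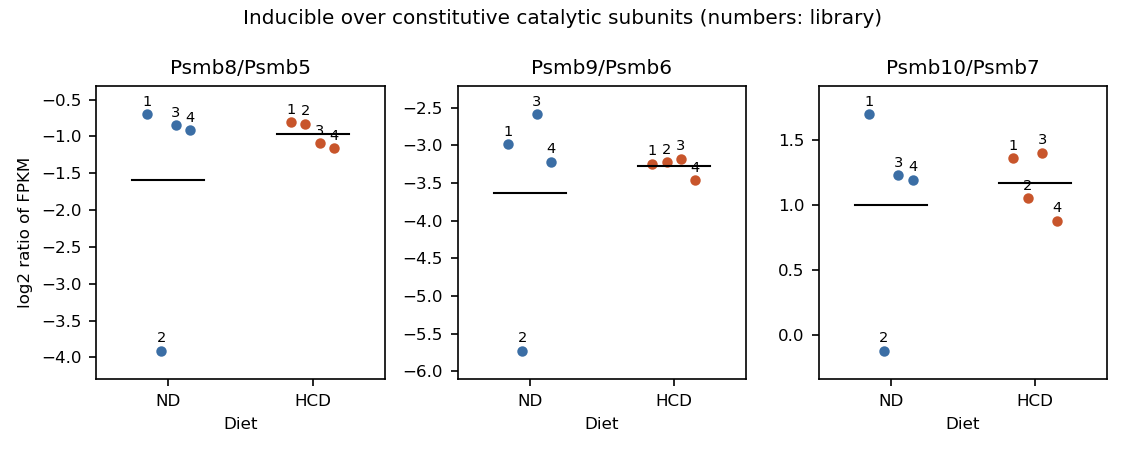
log2 ratio of FPKM (y axis) of each inducible catalytic subunit over its constitutive partner, by diet (x axis); points are libraries, numbered, and bars are group means. ND 2 lies below the other 7 libraries in all 3 panels, at ratios of 0.0665, 0.0189 and 0.917.

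Nfe2l1 was measured beside its candidate targets. It had 88.7, 77.4, 77.8 and 71.8 CPM in ND and 90.6, 68.2, 79.5 and 215.7 in HCD. HCD 4 stood 2.73-fold above the mean of the other 7, which overlapped between diets, and the diet difference did not pass the test (log2 fold change 0.52, SE 0.31, edgeR adjusted p = 0.486). Without HCD 4 the log2 fold change was 0.0094. In HCD 4 the members were not raised as a group: 15 of 31 lay above their own mean, the median deviation was -0.0046 on the log2 scale, and HCD 4 was the highest library for 4 members and the lowest for 1. Of the 4 members with TGACNNNGC in the window, Psmc6 was highest in HCD 4 at 127.5 CPM and Psmb6 lowest at 162.4. Psmb5 was the second lowest of its 8 values there, at 71.9 CPM, and Psmd12 was second highest, at 91.5. In HCD 4, 6 genes that neighbour Nfe2l1 stood at 0.813 (Cdk5rap3) to 1.38 (D030028A08Rik) times their mean over the other 7 libraries. D030028A08Rik had 5.33 CPM there, within the 1.99 to 5.88 CPM of the other 7. Ddi2, the protease that cleaves NRF1, had 64.4 CPM in HCD 4 and 55.6 to 68.2 elsewhere.

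**Figure D5:**
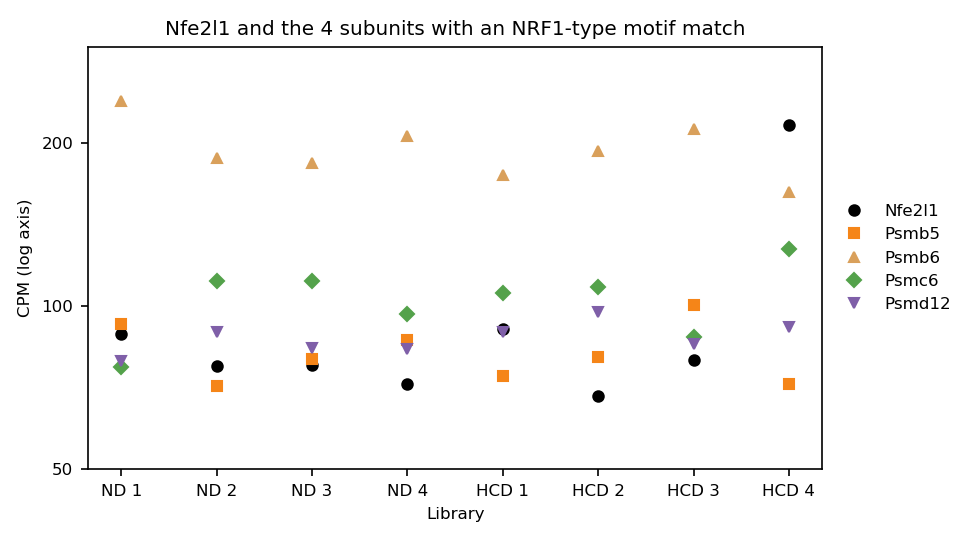
CPM (y axis, log scale) of Nfe2l1 and the 4 subunits with a TGACNNNGC match in each library (x axis). Nfe2l1 reaches 215.7 CPM in HCD 4 alone, where Psmb6 is at 162.4, its lowest, and Psmc6 at 127.5, its highest.

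The lists of other pathway genes held 42 tested genes, and none passed the adjusted threshold. At an unadjusted p under 0.05 there were 6 of 42 (Sem1, Pomp, Uchl5, Ubqln4, Uba6 and Ubb), and in 3 of 42 (Ubqln4, Ufd1 and Uba6) the groups did not overlap, beside the 14.7% and 9.67% of all genes. Of the 2 other 19S subunits, both had lower fitted values. Sem1, a small lid subunit, had 116.1 ± 8.69 CPM in ND and 101.2 ± 8.81 in HCD (SD, n = 4), with overlapping groups (log2 fold change -0.20, edgeR adjusted p = 0.308). Adrm1, a ubiquitin receptor, had 65.6 ± 3.90 and 59.8 ± 2.59 CPM (edgeR adjusted p = 0.431).

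Of 5 activator and inhibitor genes, 4 had fitted values above 0, with Psme3, a nuclear activator subunit, at 231.2 ± 13.9 CPM in ND and 256.3 ± 19.3 in HCD (edgeR adjusted p = 0.386). Psme4, another nuclear activator, had a log2 fold change of 0.07 and the inhibitor Psmf1 -0.03. Of 8 assembly chaperones, 5 lay above 0 and 3 below. Pomp, which matures the core, had 59.6 ± 6.31 CPM in ND and 51.7 ± 3.21 in HCD (SD, n = 4), with overlapping groups (log2 fold change -0.20, edgeR adjusted p = 0.335). The base chaperone Psmd10 had 24.7 ± 3.88 and 29.2 ± 4.79 CPM (edgeR adjusted p = 0.498).

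Of 12 deubiquitinase, ligase and shuttle genes, 8 lay above 0. Ubqln4, a shuttle for ubiquitinated proteins, had 111.1, 78.9, 99.9 and 94.0 CPM in ND and 114.0, 137.6, 124.0 and 114.2 in HCD. The groups did not overlap, and the log2 fold change of 0.35 (SE 0.11) had an unadjusted p of 0.00811 and an adjusted p of 0.178 by edgeR. Uchl5, a deubiquitinase docked on Adrm1, had 16.6 ± 2.50 and 21.0 ± 3.22 CPM (edgeR adjusted p = 0.322). Among Nfe2l1 and the 5 genes that process NRF1, Ufd1, a cofactor of the Vcp extraction ATPase, had 32.1 ± 1.00 CPM in ND and 29.3 ± 1.22 in HCD, without overlap (log2 fold change -0.13, edgeR adjusted p = 0.449).

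The 2 ubiquitin-activating enzymes Uba1 and Uba6 had higher fitted values in HCD, and neither passed. Uba6 had 27.1, 37.7, 34.5 and 38.8 CPM in ND and 45.8, 40.6, 43.1 and 48.6 in HCD, with no overlap (log2 fold change 0.37, SE 0.12, edgeR adjusted p = 0.193). Ubb, a polyubiquitin gene, had 440.4 ± 44.5 and 382.4 ± 30.6 CPM (SD, n = 4), with overlapping groups (log2 fold change -0.20, edgeR adjusted p = 0.311). Psma8 and Psmb11, the testis and thymus forms of core subunits, had at most 0.120 and 0.242 CPM in a library and did not enter the test.

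Counting limits touch at least 14 of the 31 members. Copies were searched by sequence among annotated transcripts only, so copies outside the annotation would be missed. In that search, 9 of the 31 had near-identical copies elsewhere (at least 95% identity over at least 300 bases), 17 copies in all. Of these, 4 had counts and Gm609 had a count of 0. The rest, Gm13835 among them, are absent from the deposited tables, so their counts are not known. The pseudogene Gm8394, counted separately, held 40.6% of the summed counts of Psma5 and itself, so the level of Psma5 is uncertain. Gm13835 is identical to Psma3 over 685 bases, so the level of Psma3 is uncertain as well. The log2 fold change was 0.05 for Psma5 (edgeR adjusted p = 0.886) and 0.09 for Gm8394 (edgeR adjusted p = 0.811). Exons of 8 members share bases with another gene (Psma4, Psma5, Psmb5, Psmb7, Psmc3, Psmd1, Psmd3 and Psmd13), as do those of Psmb8 with Gm20496 and Psmb9 with Tap1 on the opposite strand, and whether reads were counted by strand is not known from the labels.

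The statement that no member passed the adjusted threshold held in each of the 18 alternatives. The counts at an unadjusted p under 0.05 did change: 3 of 31 members (Psma7, Psmb6 and Psmc6) with a term that sets ND 2 to ND 4 apart, which leaves ND 1 alone to carry the diet contrast, 1 of 31 (Psmd3) without ND 1, and 2 of 31 (Psmc2 and Psmd12) by limma on log2(FPKM + 1). The shares of all genes tested under the same settings were 11.3%, 13.4% and 15.9%.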

How the data were processed

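Members and lists were chosen with earlier results of these data known. RNA-seq of 4 ND and 4 HCD tumours was grouped by the diet in the labels. The authors deposited, per the file headers, whole-number counts per Ensembl gene and FPKM, in which each count is divided by gene length and library total; FPKM is therefore not corrected for composition. Per the submitters' processing notes, HTSeq, edgeR, TopHat2 2.0.9, CASAVA 1.8 and the build mm10 were used; their order, strand setting and annotation are not stated there. Symbols and coordinates come from GENCODE M21 (GRCm38), and 44 of 45 pathway symbols matched (Paaf1 did not).

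Counts were tested with edgeR 4.0.16 (limma 3.58.1, R 4.3.3) by the quasi-likelihood F-test with TMM factors and the expression filter (minimum count 10, minimum total 15), diet as the only term and Benjamini-Hochberg adjustment over 13186 genes. The common biological coefficient of variation was 17.2%. CPM are TMM-normalized, log2 CPM uses a prior count of 2, and intervals are 95%. The fit was tested on simulated data. DESeq2 1.42.0 was an alternative. Named members are the 6 with the smallest p, the 3 catalytic subunits, and the highest and lowest by FPKM in each part of the particle; of each pathway list, up to 4 genes with the smallest p, plus Psmb8, Psmb9, Psmb10 and Nfe2l1, were eligible. Some genes of the pathway lists are counted but not reported here by name.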

Additional observations from a re-analysis of the deposited data

Results flagged for a closer look

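In each diet, a library was marked where its gap to the nearest of the other 3 took more of the group's range than Dixon's 95% critical value allows. Chance marks about 1 in 20 groups, and 5 of the 118 sets examined were marked, 3 of them among the 62 sets of members. Psma1 had 54.4 CPM in HCD 3, against 63.5 to 65.2 in the other HCD libraries. Psma2 had 111.4 CPM in ND 3, against 88.7 to 91.7 in the other ND libraries. Psmd13, a lid subunit, had 167.3 CPM in HCD 2, against 143.5 to 145.9. Nfe2l1 had 215.7 CPM in HCD 4, against 68.2 to 90.6. The log2 FPKM ratio of Psmb8 to Psmb5 was -3.91 in ND 2, against -0.92 to -0.70 in the other ND libraries. The causes were not tested.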

How the results depend on the processing

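No member passed the adjusted threshold under any of the 18 alternatives, while the number of all genes called, 24, became 431 with DESeq2's test, 93 without the expression filter, 6 with offsets for GC and length (an alternative chosen after seeing the data), 0 with the replicate block and 5 where a term set ND 2 to ND 4 apart; leaving out 1 library gave 0 to 12. The labels name no pairing by replicate number. Libraries of the same number were not alike (correlations of deviations from 0.107 for number 4 to -0.0676 for number 3). Only 1 of 8 libraries correlated best with its own number, though low correlations cannot exclude a pairing. With the replicate block 0 members were called and their median log2 fold change was 0.013. The median of the members moved from 0.0099 to 0.057 by limma on log2(FPKM + 1). The median over all genes tested moved as well, from 0.0049 to 0.035. Without ND 2 the median of the members was -0.011.

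Some log2 fold changes changed sign, none of them past the adjusted threshold, and the cause was not tested. They lay between -0.06 and 0.06 in the reported fit, except Psmb9 (-0.16), Psmg1 (0.11), Psmb8 (0.14) and Psme2 (0.20). With DESeq2 size factors Psmc1 was -0.00056, with upper-quartile factors Psmc1 -0.0063 and Psmc5 -0.0041, with the replicate block Psmc1 -0.00065 and Psmb9 0.086, by DESeq2's test Psmc1 -0.00061, and by limma-voom Psmc1 -0.00091 and Psmb9 0.22. The term for ND 2 to ND 4 gave Psma3 0.053, Psmb2 0.079, Psmc1 -0.016, Psmc3 -0.13, Psmc5 -0.11, Psmd7 -0.018, Psmb8 -0.45, Psmb10 -0.47, Psme2 -0.28 and Psmg1 -0.080. On log2(FPKM + 1), Psma1 was 0.020, Psmb4 0.020, Psmb5 0.024, Psmd13 0.0032, Psmb9 0.13 and Psmf1 0.015. With GC and length offsets, Psma2 was -0.012, Psma4 -0.0020, Psmb5 0.043, Psmb7 -0.054 and Psmd11 -0.058.

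With 1 library left out in turn, values ran from -0.051 to 0.031 for Psma1, -0.037 to 0.090 for Psma2, -0.086 to 0.020 for Psma3, -0.017 to 0.12 for Psma5, -0.098 to 0.0035 for Psmb2, -0.13 to 0.045 for Psmb5, -0.021 to 0.062 for Psmb7, -0.039 to 0.026 for Psmc1, -0.014 to 0.096 for Psmc3, -0.059 to 0.051 for Psmc5 and -0.0022 to 0.054 for Psmd11. They ran from -0.23 to 0.40 for Psmb8, -0.51 to 0.055 for Psmb9, -0.22 to 0.27 for Psmb10 and -0.071 to 0.020 for Psmf1. Without a change of sign, Nfe2l1 ran from 0.0094 (without HCD 4) to 0.71 and Psme2 from 0.0096 to 0.41. The log2 ratio differences ran from -0.15 to 0.92 for Psmb8 to Psmb5, -0.35 to 0.70 for Psmb9 to Psmb6 and -0.20 to 0.41 for Psmb10 to Psmb7, with the lowest value of each without ND 2.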
